A study of Mus musculus with 13 samples.

Results

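The first day of differentiation of purified mouse islet progenitors was examined by setting 3 arrays of progenitors at day 1 against 4 arrays at day 0, 7 of the 13 arrays of the study, chosen by their titles. All samples of both days were total RNA from pancreas of the C57BL/6 strain, hybridised as biotin-labelled cRNA to single-colour Illumina bead arrays. The other 6 arrays held progenitors at day 4 (2 arrays), adult islets (2 arrays) and the W9.5 line of embryonic stem cells (2 arrays), and served for the estimate of the spread and as levels to set beside those of day 1. The labels number the replicates but do not say that they were separate cultures or animals, so each p-value rests on how far these samples differ, a spread that could be technical. Nor do they give the age of the animals, the way the progenitors were purified or the medium in which they were kept. Every value below is a log2 intensity as deposited, and a gene was taken as above background over 7.24.

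Islet progenitors are the cells of the pancreatic epithelium that switch on the transcription factor Neurog3 and then leave the cell cycle, lose contact with the duct and become cells that make insulin, glucagon, somatostatin, pancreatic polypeptide or ghrelin. Neurog3 is a pulse: it is high for a short time, induces factors such as Neurod1, Insm1, Pax4 and Nkx2-2, and then fades. A differentiating endocrine cell has to take up amino acids for hormone synthesis, import glucose, load its granules with zinc and calcium and settle into an islet through its adhesion molecules.

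In all, 454 of 10382 genes differed between day 1 and day 0 at an adjusted p under 0.05 (limma, Benjamini-Hochberg), 4.37% of those tested. Of these, 208 were higher at day 1 (2.00%) and 246 lower (2.37%), and 131 differed at least 2-fold (1.26%), 60 of them higher and 71 lower. The day 1 and day 0 arrays did not overlap for 1596 genes (15.4%). The median difference over all genes was 0.00. The 5 largest rises among genes whose arrays did not overlap were those of Acta1, Chac1, Slc7a3, Pdyn and Nptx2, and the 5 largest falls those of Fos, Neurog3, Hspa1a, Pax4 and Egr1. Leaving out day 1 replicate 2 gave 243 genes, leaving out day 1 replicate 3 gave 202, and the genes higher numbered 135 without day 0 replicate 1. With both day 1 replicate 2 and day 0 replicate 3 left out the count was 260.

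The arrays did not differ by day alone. On the first principal component of the 7 arrays (36.9% of the variance) day 1 replicate 2 stood at 35.3, against 11.5 and -3.1 for the other day 1 arrays and -19.5 to 9.6 for the day 0 arrays, and the second (26.7%) put day 1 replicates 1 and 3 below every day 0 array but not replicate 2. Clustering the arrays on probes that were above background on no array set day 1 replicates 2 and 3 and day 0 replicates 3 and 4 apart from the other 9. Correlations within this set of 4 were weak (r between -0.01 and 0.16 over 6 pairs), those within the 9 were -0.11 to 0.06 and those between the sets -0.18 to -0.04. Day 0 replicate 4 correlated with day 1 replicates 2 and 3 at 0.01 and -0.01. The labels name no such grouping, and the fit with the set as a term called 474 genes, 405 of them among the 454. Within the set of 4 alone 229 genes passed, and day 1 replicate 1 against day 0 replicates 1 and 2 gave 43.

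**Figure D1:**
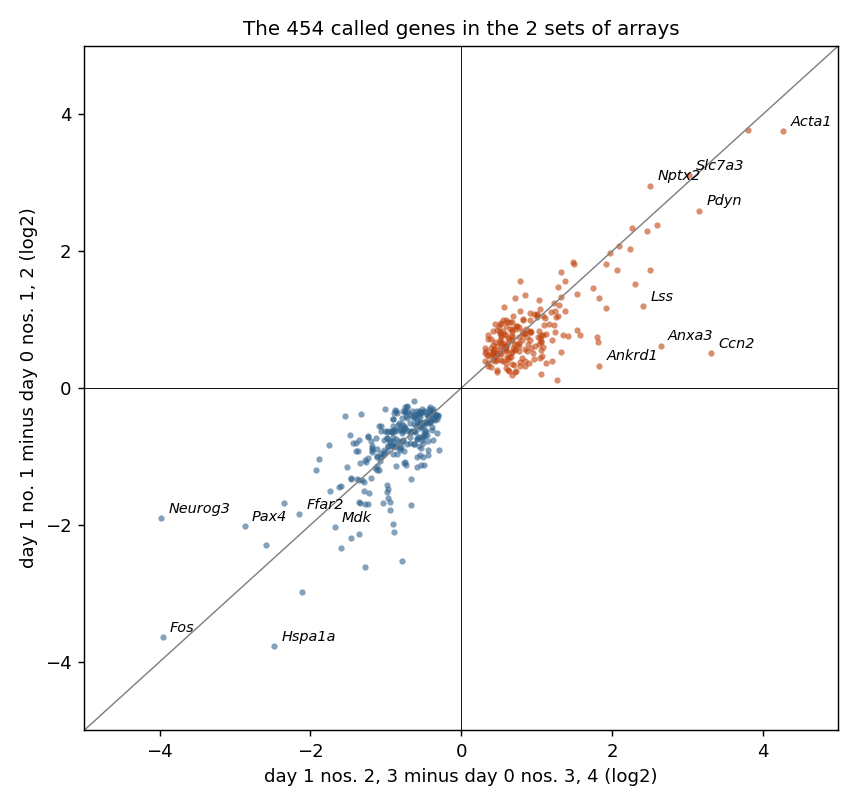
Each point is a called gene, with the difference between day 1 replicates 2 and 3 and day 0 replicates 3 and 4 across and that between day 1 replicate 1 and day 0 replicates 1 and 2 up, both in log2. All 208 genes higher at day 1 (orange) and all 246 lower (blue) have the same sign in both sets, which the choice of called genes largely fixes, and Ccn2, Anxa3 and Ankrd1 lie far under the diagonal.

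Markers of the labelled cells were present on both days. The 8 endocrine markers tested, which include chromogranins and synaptophysin, averaged 11.14 to 11.43 over the day 1 arrays and 11.27 to 11.67 over the day 0 arrays, and none was called. The 11 acinar markers were also bright, at 9.92 to 11.28 at day 1 and 9.23 to 11.11 at day 0, and again none was called. Erythroid markers (3 tested) averaged 8.44, 10.10 and 10.37 at day 1 against 9.75 to 10.59 at day 0. Mesenchyme markers (10 tested) spanned 7.56 to 8.80 and 7.61 to 9.13. Ductal markers (4 tested) spanned 9.01 to 9.20 and 8.98 to 9.43. Endothelial markers (7 tested) averaged 7.10 to 7.29 at day 1, near background, and 7.19 to 8.06 at day 0, and none was called. Among them Plvap read 9.12, 7.45, 7.24 and 8.36 at day 0 and 7.02 to 7.07 at day 1. Emcn read 8.21, 7.49, 7.23 and 7.86 at day 0 and 6.89 to 7.07 at day 1, while Eng differed by 0.09. The 2 neural markers averaged 7.27 to 7.44 at day 1 and 7.39 to 7.76 at day 0. The 9 immune markers alone did not overlap in their mean, at 7.10 to 7.47 at day 1 and 7.66 to 8.15 at day 0, with Laptm5 and Fcer1g called lower and the other 7 not called. Each of the 2 lost the call when any of 6 of the 7 arrays was left out (adjusted p up to 0.163). Outside the list, the macrophage genes C1qb, C1qc and Mrc1 were also called lower (-0.93, -0.73 and -0.63). The lymphocyte protease Gzmm was called higher (0.79). These genes were picked after the values were seen. In bulk samples, fewer cells of a type and less RNA per cell cannot be told apart.

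**Figure D2:**
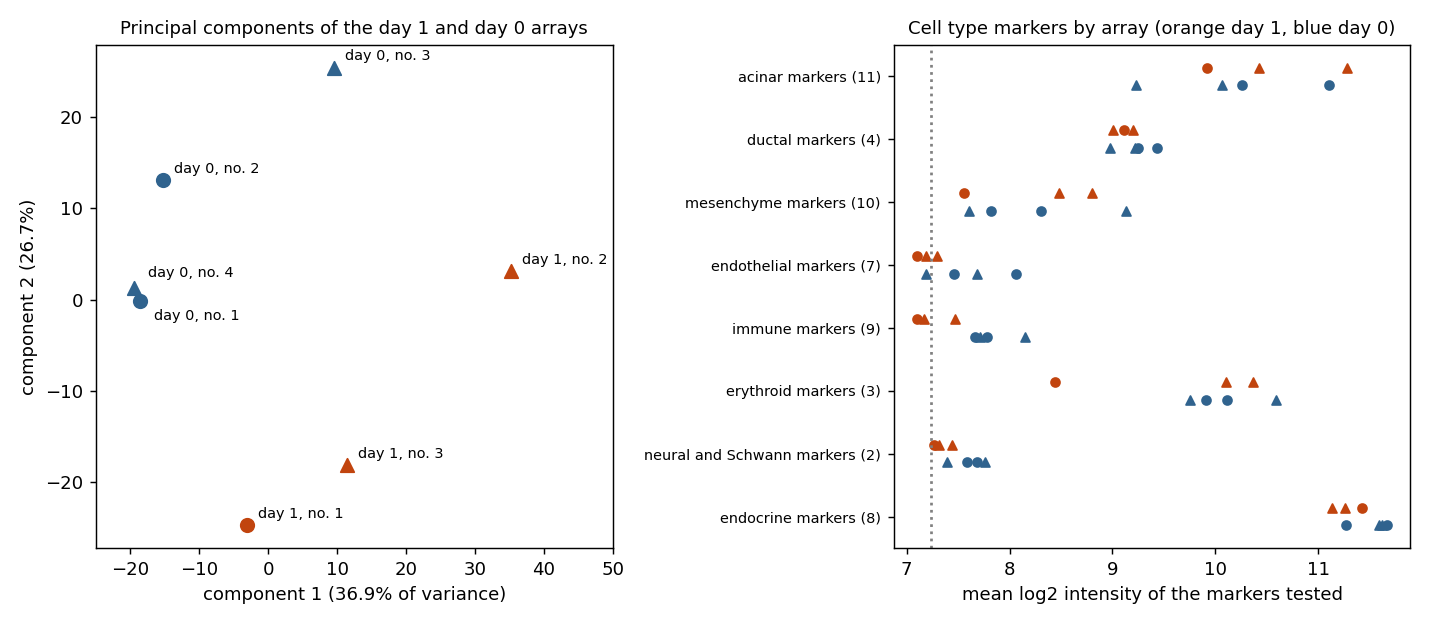
Left, the 7 arrays on their first 2 principal components (share of variance on the axes); right, the mean log2 intensity of each marker list on each array, with day 1 in orange above day 0 in blue and triangles for the set of 4 arrays grouped by their dim probes. Day 1 replicate 2 lies apart on the first component at 35.3, and only the immune list separates the days, at 7.10 to 7.47 against 7.66 to 8.15.

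Muscle-type actins gave the largest rise of the day. Acta1, the alpha actin of skeletal muscle, read 11.11, 11.79 and 11.83 on the day 1 arrays, against 7.25, 7.47, 7.66 and 7.42 on the day 0 arrays. The day 0 values were barely over background and every day 1 value lay above 11, a difference of 4.13 ± 0.18 (SE, adjusted p = 6.57e-07, a 17.48-fold rise). Actc1, the cardiac actin, read 8.66, 9.76 and 9.41 at day 1, against 7.10, 7.19, 7.46 and 7.11 at day 0. It rose by 2.06 ± 0.21 (adjusted p = 4.31e-04), with 1 of the 4 day 0 arrays over background. Vcl (vinculin, which ties actin to adhesion sites) read 10.91, 11.04 and 10.76 at day 1, against 9.84, 9.50, 9.51 and 9.84 at day 0, and rose by 1.23 ± 0.12 (adjusted p = 4.06e-04). The day 1 arrays of Vcl lay closest together (SD 0.14, n = 3), with 0.41 for Acta1 and 0.56 for Actc1. Ankrd1, a muscle ankyrin repeat protein, was more spread (SD 0.83): it read 7.58, 9.19 and 8.71 at day 1 and 7.27, 7.22, 7.16 and 7.08 at day 0 (1.31 ± 0.29, adjusted p = 0.0283). With 1 of its day 0 arrays above background, the size of that rise is uncertain.

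Of the 32 tested genes of actins, tropomyosins and their partners in contractile cells, these 4 rose, 0 fell and 28 were not called. The share called was 12.5% beside 4.37% of all genes, and the list's median difference was 0.33 beside 0.00 over all genes. Without day 1 replicate 1 the count was 12 in place of 4, and within the set of 4 arrays it was 9. Smooth muscle actin Acta2, which is also a marker of mesenchyme, read 9.91, 13.39 and 12.67 at day 1, against 9.54, 8.73, 7.91 and 10.15 at day 0, with an adjusted p of 0.0658. Its day 1 replicate 1 lay within the range of day 0, while the mesenchyme list on that array (7.56) lay just below the lowest day 0 array (7.61). The part of mesenchymal cells in the actin rises was not tested.

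The promoters of Acta1, Actc1 and Vcl are shown because each holds a CArG box, the site read by serum response factor, in the 250 bases before its start site. The match, in capitals, begins 73 bases before the start of Acta1, 47 before that of Actc1 and 227 before that of Vcl. All sequences are RefSeq's, on GRCm38.p6, 5′ to 3′ along the gene's strand: Acta1 at chr8:123894776-123895025 (minus strand), Actc1 at chr2:114052876-114053125 (minus strand) and Vcl at chr14:20929148-20929397 (plus strand).
Acta1: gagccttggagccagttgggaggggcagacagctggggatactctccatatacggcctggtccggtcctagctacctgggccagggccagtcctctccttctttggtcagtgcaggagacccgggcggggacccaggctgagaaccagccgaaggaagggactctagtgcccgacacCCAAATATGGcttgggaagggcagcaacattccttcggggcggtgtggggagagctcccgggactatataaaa
Actc1: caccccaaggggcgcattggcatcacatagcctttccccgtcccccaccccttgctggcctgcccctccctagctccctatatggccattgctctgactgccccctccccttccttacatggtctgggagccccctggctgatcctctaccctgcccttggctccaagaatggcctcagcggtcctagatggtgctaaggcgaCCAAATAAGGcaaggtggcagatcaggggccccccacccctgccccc
Vcl: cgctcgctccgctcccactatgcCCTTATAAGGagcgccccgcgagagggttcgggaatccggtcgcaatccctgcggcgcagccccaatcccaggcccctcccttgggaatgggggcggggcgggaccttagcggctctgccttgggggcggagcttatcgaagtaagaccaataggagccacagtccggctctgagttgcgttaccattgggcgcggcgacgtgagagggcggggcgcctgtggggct
A CArG box was found on either strand in 1.62% of the 27025 genes with such a window and in 1.45% of the 8417 tested genes with one. Among called genes it was found in 5 of 172 higher (2.91%) and 4 of 196 lower (2.04%), the other risers being Glipr2 and Trnp1 and the fallers Arrdc4, Egr2, Vil1 and Zfp36. The part of serum response factor in these changes was not tested. 

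Solute carriers were the largest family tested for transport, with 212 genes. Of these 12 rose, 8 fell and 192 were not called (median 0.02, 9.43% called beside 4.37% of all genes). Carriers of amino acids led the rises, though they were not counted as a group of their own. Slc7a3, which takes up arginine and lysine, read 10.25, 10.20 and 10.20 at day 1, against 7.19, 7.09, 7.17 and 7.19 at day 0. No day 0 array was above background, so it was at least 7.89-fold higher (adjusted p = 1.89e-06), where a bound of this kind sets the day 0 arrays at the background level. Slc1a4, a carrier of alanine, serine and cysteine, read 9.24, 9.56 and 9.43 at day 1, against 7.44, 7.41, 7.51 and 7.64 at day 0 (1.91 ± 0.27, adjusted p = 0.00263). The glycine carrier Slc6a9 read 9.18, 9.84 and 9.34 at day 1, against 7.92, 7.81, 7.81 and 7.72 at day 0 (1.64 ± 0.18, adjusted p = 5.71e-04). Slc7a5, the light chain of the main carrier of large neutral amino acids, read 12.35, 11.79 and 12.33 at day 1, against 11.27, 11.21, 10.63 and 11.10 at day 0 (1.10 ± 0.19, adjusted p = 0.00878). None of these 4 carriers overlapped between days, as was so for 15.4% of all genes. All 4 kept their calls with any single array left out. The cystine carrier Slc7a11 read 7.51, 8.57 and 8.16 at day 1, with every day 0 array below background, and was at least 1.79-fold higher (adjusted p = 0.0162). The others that rose were Slc6a6, Slc19a2, Slc2a1, Slc23a3, Slc48a1, Slc35b4 and Slc25a28.

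Carriers of other solutes were among those that fell. Slc13a4, a sulphate carrier, read 7.44, 7.39 and 7.44 at day 1, against 8.83, 8.68, 9.07 and 8.69 at day 0, a difference of -1.39 ± 0.15 (adjusted p = 5.28e-04). Slc30a8 loads insulin granules with zinc. It read 9.39, 9.26 and 9.11 at day 1, against 9.85, 10.52, 10.26 and 10.92 at day 0 (-1.13 ± 0.20, adjusted p = 0.0116), and stood above its day 1 level in adult islets, at 12.45 and 12.20. The glucose and mannose carrier Slc5a9 was above background on every day 0 array (lowest 7.86) and on none at day 1 (7.07 to 7.15), at least 1.61-fold lower (adjusted p = 2.57e-04). Slc4a1, the anion exchanger of red cells, was at least 1.78-fold lower (adjusted p = 0.00545). It read 6.95, 7.12 and 7.23 at day 1, against 7.98, 7.82, 8.05 and 8.43 at day 0. The erythroid markers overlapped between the days in their mean (above). Hba-a1, Alas2 and Klf1 differed by -0.55, -0.69 and -0.12, and none was called. The part of red cells in the fall of Slc4a1 was not tested. The orphan carrier Slc35d3 read 8.43, 8.53 and 8.33 at day 1, against 9.25, 9.18, 9.35 and 9.89 at day 0 (-0.98 ± 0.20, adjusted p = 0.0217). Slc14a2, Slco2b1 and Slc38a8 fell too, the last (-0.65) being of a family of amino acid carriers.

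Of the glucose carriers, Slc2a1 rose and Slc2a2 was not called. Slc2a1, the widely expressed glucose transporter, read 9.61, 10.17 and 9.88 at day 1, against 9.29, 9.04, 8.94 and 9.02 at day 0 (0.81 ± 0.15, adjusted p = 0.0141). Slc2a2, the transporter of beta cells, read 9.38, 9.49 and 8.81 at day 1, against 8.99, 10.41, 9.44 and 9.95 at day 0 (adjusted p = 0.441, and 2 of its 3 probes had the opposite sign). Of the other hexose and monocarboxylate carriers only Slc5a9 was called (21 tested, 9.52% called with Slc2a1). Each of the smaller transport lists held a single call, a share of 2.38% to 5.88% beside 4.37% of all genes. Of 28 ABC transporters Abcb6 rose (3.57%), and of 42 ion pumps and subunits Fxyd3 fell (2.38%). Of 17 aquaporins, connexins and pannexins Aqp7 fell (5.88%), and of 30 metal carriers Slc30a8 fell (3.33%). Of 32 mitochondrial carriers Slc25a28 rose (3.12%), and of 22 anion carriers and carbonic anhydrases Slc4a1 fell (4.55%). Abcb6, a porphyrin carrier, read 8.96, 9.25 and 9.09 at day 1, against 8.02, 8.26, 8.10 and 7.75 at day 0 (1.07 ± 0.12, adjusted p = 8.36e-04). Fxyd3, which modulates the sodium pump, read 10.16, 9.55 and 10.30 at day 1, against 11.53, 11.61, 10.54 and 11.30 at day 0 (-1.24 ± 0.26, adjusted p = 0.0217). Of the 14 carriers named by the rule, Slc30a8, Slc35d3, Slc2a1, Slc25a28, Fxyd3 and Aqp7 lost the call when an array was left out, with adjusted p up to 0.145 (Slc25a28 without day 1 replicate 2). Slc30a8 lost it without day 1 replicate 3, and Slc2a1 without day 1 replicate 2 or 3.

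Enzymes that make serine, glycine, asparagine and one-carbon units of folate rose beside these carriers. Of 31 tested, 5 rose and 1 fell (median 0.06, 19.4% called beside 4.37% of all genes). The count of risers was 5 or 6 with any single array left out. Aldh1l2, the mitochondrial enzyme that oxidises formyl-tetrahydrofolate, read 9.68, 9.98 and 9.74 at day 1, against 7.28, 7.32, 7.31 and 7.23 at day 0 (2.51 ± 0.10, adjusted p = 6.57e-07). Its day 0 values sat on the background level. Asns, asparagine synthetase, read 13.14, 12.88 and 12.96 at day 1, against 10.81 to 11.30 at day 0 (1.94 ± 0.21, adjusted p = 5.28e-04). Psat1, which makes phosphoserine, read 10.30, 11.05 and 10.69 at day 1, against 9.41, 8.86, 8.72 and 9.19 at day 0 (1.64 ± 0.22, adjusted p = 0.00231). Mthfd2, of the mitochondrial folate cycle, read 9.89, 9.25 and 9.20 at day 1, against 7.92, 8.18, 7.96 and 7.53 at day 0 (1.55 ± 0.19, adjusted p = 0.00118). The arrays of the 2 days did not overlap for any of these 4, as was so for 15.4% of all genes. Shmt2, which turns serine into glycine, was the remaining riser, and Bhmt2, a methyltransferase of methionine synthesis that no day 1 array showed above background, was at least 1.07-fold lower (adjusted p = 0.0283).

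Of the 28 basic leucine zipper factors in the list, 3 rose and 0 fell (median 0.14, 10.7% called beside 4.37% of all genes). The list leaves out Fos, Fosb and Jun, factors of the same family that fell (-3.74, -2.40 and -1.94, given below). Atf5, which is induced under amino acid and mitochondrial stress, read 10.89, 10.52 and 10.44 at day 1, against 9.10, 8.52, 8.47 and 8.29 at day 0 (2.02 ± 0.22, adjusted p = 5.71e-04). Ddit3, the CHOP factor of the stress response, read 9.25, 9.08 and 9.50 at day 1, against 8.35, 7.97, 8.22 and 8.53 at day 0 (1.01 ± 0.24, adjusted p = 0.0385). Jdp2, a partner and repressor of Jun, was on no day 0 array above background and at least 1.46-fold higher (adjusted p = 0.0435). Trib3, a pseudokinase that binds such factors, was at least 1.27-fold higher on the same terms (7.46 to 7.73 at day 1, 6.98 to 7.18 at day 0, adjusted p = 0.0218). Eif4ebp1, a brake on translation initiation, read 11.96, 11.40 and 11.22 at day 1, against 10.14, 9.11, 8.90 and 9.19 at day 0 (2.19 ± 0.27, adjusted p = 0.00108). Chac1, a known target of Atf4 and Ddit3, rose by 3.81 ± 0.17. Atf5 stayed high later, at 11.39 and 11.03 at day 4 and 11.67 and 11.92 in adult islets.

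The motif TGATGNAA, the core of the element bound by Atf4 and Ddit3 in amino acid response genes, was searched on both strands in the 250 bases before each start site. It was found in 3.91% of all 27025 genes with a window and 2.76% of tested genes. Among called genes it was found in 15 of 172 higher (8.72%) and 2 of 196 lower (1.02%). The 15 include Asns, Slc7a11, Chac1, Fgf21, Jdp2, Aars and Herpud1, and the fallers were Rbp4 and Rem2. The promoters of Asns, at chr6:7693210-7693459 (minus strand, match 23 bases before the start), of Slc7a11, at chr3:50443614-50443863 (minus strand, matches 66 and 47 bases before it) and of the hormone Fgf21, at chr7:45615491-45615740 (minus strand, match 139 bases before it), are shown to let the sites be compared. Capitals mark the motif, read as its reverse complement where it lies on the other strand. All are from RefSeq on GRCm38.p6.
Asns: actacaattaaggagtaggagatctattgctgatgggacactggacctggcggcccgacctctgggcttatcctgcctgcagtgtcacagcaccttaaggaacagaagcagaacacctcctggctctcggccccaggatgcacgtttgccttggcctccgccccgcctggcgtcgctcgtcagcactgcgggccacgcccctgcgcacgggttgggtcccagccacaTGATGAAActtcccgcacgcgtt
Slc7a11: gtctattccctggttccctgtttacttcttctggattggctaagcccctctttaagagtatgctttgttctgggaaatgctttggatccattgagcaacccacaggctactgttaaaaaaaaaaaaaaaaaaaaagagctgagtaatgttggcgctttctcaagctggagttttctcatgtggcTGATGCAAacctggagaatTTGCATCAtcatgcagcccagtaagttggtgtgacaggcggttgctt
Fgf21: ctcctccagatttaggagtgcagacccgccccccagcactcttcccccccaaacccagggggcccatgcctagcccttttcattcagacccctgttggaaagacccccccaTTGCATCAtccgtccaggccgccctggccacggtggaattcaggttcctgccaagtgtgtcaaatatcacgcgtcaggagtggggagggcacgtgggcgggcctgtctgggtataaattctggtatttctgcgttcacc
A match describes these letters and is not evidence that a factor was bound.

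In the list of fatty acid and glycerolipid synthesis 9 of 56 tested were higher, 0 lower and 47 not called. The median was 0.16 and the share called 16.1% beside 4.37% of all genes, and 7 to 9 passed with any single array left out. Scd1, which puts the first double bond into fatty acids, read 8.76, 9.54 and 9.51 at day 1, against 7.14, 6.96, 6.95 and 7.11 at day 0. With no day 0 array above background it was at least 4.1-fold higher (adjusted p = 9.51e-05). Fads1, a desaturase of polyunsaturated fatty acids, read 12.07, 12.37 and 12.22 at day 1, against 10.84, 10.40, 10.50 and 10.59 at day 0 (1.64 ± 0.12, adjusted p = 4.12e-05). Elovl6, which lengthens saturated chains, read 9.52, 10.46 and 10.05 at day 1, against 8.56, 8.95, 8.86 and 8.82 at day 0 (1.21 ± 0.19, adjusted p = 0.00609). Acss2, which makes acetyl-CoA from acetate, read 9.86, 10.16 and 9.95 at day 1, against 8.74, 8.90, 8.91 and 8.65 at day 0 (1.20 ± 0.15, adjusted p = 0.00156). The other 5 were Elovl5, Acaca, Acsl3, Lpin1 and Pnpla6, the last a lysophospholipase and not an enzyme of synthesis. Pcyt2, of phosphatidylethanolamine synthesis, read 10.23, 10.35 and 9.97 at day 1, against 8.59, 8.22, 8.78 and 8.55 at day 0 (1.65 ± 0.16, adjusted p = 3.66e-04). Beside these the sterol genes Msmo1, Hmgcs1, Lss and Fdps rose by 2.47, 2.16, 2.08 and 1.93. Lss lost the call without any of 5 arrays (adjusted p up to 0.0962), and Msmo1, Hmgcs1 and Fdps kept it with any array left out. Of 33 genes of fatty acid oxidation 2 fell and 0 rose (6.06% called beside 4.37% of all genes), namely Etfb (-0.78 ± 0.17) and Eci2 (-0.60 ± 0.12). Etfb lost the call without any of 4 arrays (adjusted p up to 0.0913) and Eci2 without day 1 replicate 1 or 2 (up to 0.0562).

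Of 27 genes of glycolysis and gluconeogenesis 1 rose (3.7% called, under the 4.37% of all genes), the regulatory enzyme Pfkfb4 (0.71 ± 0.17, adjusted p = 0.0387), and hexokinase Hk2, at 8.68, 9.68 and 9.35 at day 1 and 8.65, 8.37, 7.98 and 8.64 at day 0, was not called (adjusted p = 0.118). Of 37 genes of pyruvate dehydrogenase and the citric acid cycle 2 rose and 2 fell (10.8% called). Pdp2, a phosphatase that activates pyruvate dehydrogenase, read 9.98, 10.96 and 10.07 at day 1, against 9.21, 8.90, 9.71 and 8.87 at day 0 (1.17 ± 0.27, adjusted p = 0.0348). Pdk1, a kinase that inactivates it, read 7.65, 7.64 and 7.64 at day 1, against 8.35, 8.50, 8.04 and 8.13 at day 0 (-0.61 ± 0.11, adjusted p = 0.0129). The malic enzyme Me1, a source of NADPH, rose by 0.96 ± 0.18 (adjusted p = 0.015) and was the only call among 9 genes of the pentose phosphate pathway and NADPH supply. Suclg2, of succinyl-CoA synthetase, fell by 0.65 on the log2 scale (adjusted p = 0.0345). The glycogen phosphorylases parted: the brain form Pygb read 8.59, 9.47 and 8.73 at day 1, against 8.04, 7.60, 7.86 and 7.65 at day 0 (1.14 ± 0.22, adjusted p = 0.016). The liver form Pygl read 8.96 to 9.28 at day 1, against 10.20, 10.36, 10.76 and 9.90 at day 0 (-1.23 ± 0.29, adjusted p = 0.0418). Of 22 genes induced by hypoxia, Slc2a1 and Pfkfb4 rose and Pdk1 fell (13.6% called).

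Of 63 genes of glutathione and thioredoxin metabolism 5 fell and 0 rose (median 0.01, 7.94% called beside 4.37% of all genes), and 3 fell without day 1 replicate 2 or without day 1 replicate 3. Txnip, which inhibits thioredoxin and is induced by glucose, read 9.77, 9.99 and 9.89 at day 1, against 11.87, 12.05, 11.52 and 11.28 at day 0 (-1.80 ± 0.30, adjusted p = 0.00786). Mgst1, a glutathione transferase of membranes, read 8.66, 8.35 and 8.29 at day 1, against 10.74, 9.99, 9.27 and 9.85 at day 0 (-1.53 ± 0.27, adjusted p = 0.0112). Msrb2, Prdx2 and Gstz1 were the others. Of 74 glycosyltransferases 6 fell and 1 rose (median -0.07, 9.46% called), with 3 fallers without day 1 replicate 3. Mfng, the Manic fringe enzyme that adds sugars to Notch, read 9.06, 8.66 and 8.08 at day 1, against 10.17, 10.05, 10.39 and 10.11 at day 0 (-1.58 ± 0.21, adjusted p = 0.00202). St6gal1, which caps glycans with sialic acid, read 9.20, 9.62 and 9.59 at day 1, against 10.73, 10.98, 11.20 and 10.72 at day 0 (-1.44 ± 0.16, adjusted p = 5.90e-04). St6galnac2 (-1.09 ± 0.19), St8sia3 (-0.96 ± 0.14), Gcnt1 and St3gal6 fell as well, and the sialyltransferase St8sia5 rose (0.65 ± 0.16, adjusted p = 0.0439). Upp1, which splits uridine, was the only call among 32 genes of nucleotide synthesis, at 9.68, 9.40 and 9.58 at day 1 against 10.86, 10.67, 10.76 and 10.75 at day 0 (-1.20 ± 0.13, adjusted p = 5.73e-04).

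Of 58 aldehyde dehydrogenases, cytochromes P450 and retinoid enzymes, 3 rose and 2 fell (8.62% called beside 4.37% of all genes). The retinol dehydrogenase Rdh11 rose by 1.03 ± 0.16 (adjusted p = 0.00519), the aldo-keto reductase Akr1b10 by 0.70 ± 0.15 (adjusted p = 0.0271), and the third riser was Aldh1l2. Rbp4, the plasma carrier of retinol, read 10.84, 11.29 and 11.05 at day 1, against 11.60, 12.10, 12.10 and 12.38 at day 0 (-0.99 ± 0.18, adjusted p = 0.0138). Of the 32 enzymes named from the metabolic lists, 16 kept the call with any array left out, among them Scd1, Fads1, Txnip, Mfng, Upp1, Rdh11 and Pygb. The other 16 lost it at least once: 13 without day 1 replicate 3 (adjusted p up to 0.146), 10 without day 1 replicate 2 (up to 0.141) and 5 to 8 without each of the other arrays. Of the arrays left out singly, only day 1 replicate 3 cost Mgst1, Pdk1, Rbp4 and St6galnac2 the call, and Pygl lost it without every array but day 0 replicate 4. With only the 7 day 0 and day 1 arrays in the fit, Mgst1, Pdk1, Rbp4, St6galnac2 and Pygb lost the call.

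**Figure D3:**
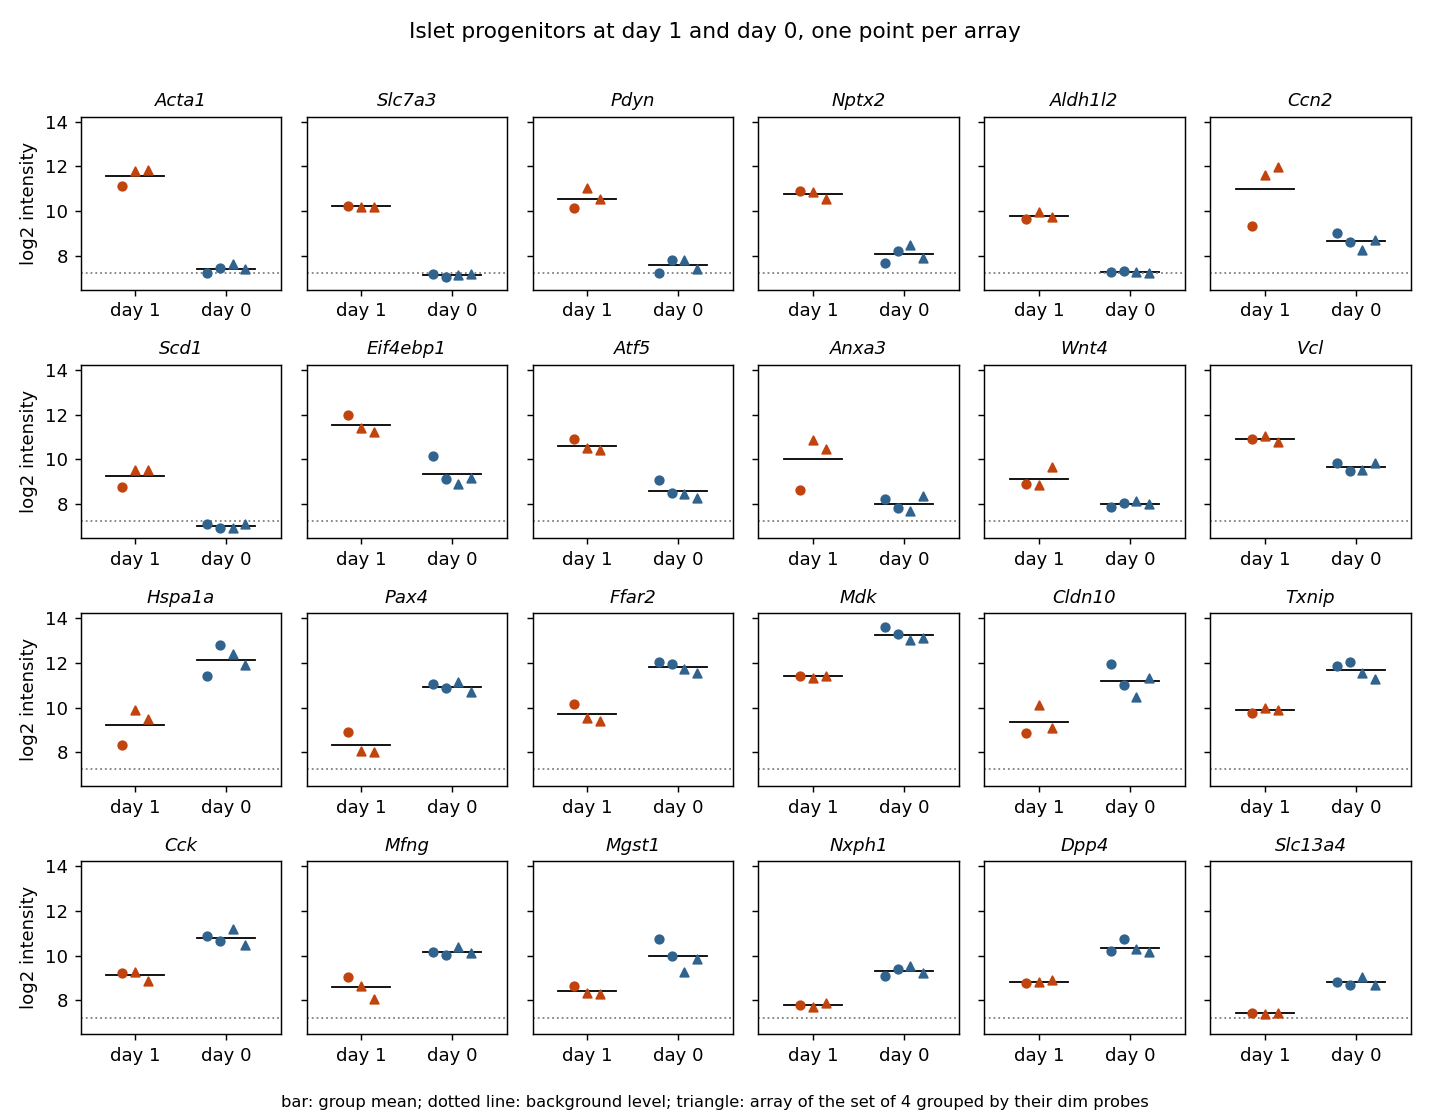
Log2 intensity of 24 called genes on each array, day 1 on the left and day 0 on the right of each panel, with the group mean as a bar and the background level of 7.24 as a dotted line. Triangles are the 4 arrays grouped by their dim probes. Slc7a3 and Aldh1l2 lie tightly at day 1, while Ccn2 and Anxa3 are high on day 1 replicates 2 and 3 and close to day 0 on replicate 1.

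Of 225 transcription factors tested in 13 families 6 rose, among them the 3 basic leucine zipper factors above, and 4 fell. The share called was 4.44%, near the 4.37% of all genes. Neurog3, Fos, Fosb, Jun and Egr1 were in none of these lists and are given separately. Pax4, which directs endocrine precursors toward beta and delta cells, fell to 8.93, 8.07 and 8.03 at day 1, against 11.04, 10.86, 11.13 and 10.71 at day 0 (-2.59 ± 0.20, adjusted p = 6.35e-05). It was below background at day 4 (mean 7.04) and in adult islets (6.90 and 6.91). Neurog3, the factor that opens the endocrine programme, read 11.60, 9.48 and 9.34 at day 1, against 13.56, 13.44, 13.79 and 12.98 at day 0. The homeobox factor Irx2 read 10.39, 9.90 and 10.20 at day 1, against 11.36, 11.72, 10.91 and 10.93 at day 0 (-1.07 ± 0.20, adjusted p = 0.0152). Pax4 and Irx2 were the 2 calls among the 35 islet and pancreas factors of the list, which leaves out Neurog3 (median -0.10, 5.71% called beside 4.37% of all genes).

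The factors that hold islet identity stayed within their spread. Pdx1 read 10.93, 10.96 and 11.16 at day 1 and 10.63, 11.30, 11.37 and 10.56 at day 0. Nkx6-1 read 12.40, 12.78 and 12.44 at day 1 and 12.24, 12.58, 13.02 and 11.88 at day 0. For Nkx2-2, Neurod1, Isl1, Pax6, Insm1, Rfx6, Foxa2, Hnf4a and Sox9 the day 1 and day 0 arrays overlapped likewise, with differences from -0.48 ± 0.37 (Neurod1) to 0.16 ± 0.23 (Nkx2-2) and adjusted p from 0.289 (Hnf4a) to 0.988 (Pax6). Standard errors of 0.11 to 0.37 leave room for changes of that order. Pax6, at 7.19 to 7.36 and 7.05 to 7.53, was at the background level on this probe, so its level cannot be judged.

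Other families gave scattered calls. Mycl, a relative of Myc, read 9.04, 8.20 and 8.64 at day 1, against 10.05, 10.13, 9.55 and 9.83 at day 0 (-1.27 ± 0.27, adjusted p = 0.0264). The repressor E2f6 read 10.22, 10.28 and 10.15 at day 1, against 9.54, 9.67, 9.72 and 9.54 at day 0 (0.60 ± 0.10, adjusted p = 0.00962), and each was called of 15 Myc network and E2F factors. Ciart, a repressor of the circadian clock, rose by 0.71 ± 0.10 (adjusted p = 0.00392, 1 of 13 clock factors) and the interferon factor Irf1 by 0.73 ± 0.16 (adjusted p = 0.0256, 1 of 19). The ETS factor Elf5 fell by 0.38 on the log2 scale (adjusted p = 0.0408, 1 of 17) to the background level. None was called at an adjusted p under 0.05 of 12 Kruppel-like factors, 12 Sox factors, 19 forkhead factors, 22 nuclear receptors, 6 Snail, Zeb and Twist factors and 13 Smad, Tead, Yap and Tcf factors. The immediate early genes Fos (-3.74 ± 0.33), Fosb (-2.40 ± 0.39), Jun (-1.94 ± 0.22) and Egr1 (-2.44 ± 0.32) and the heat shock gene Hspa1a fell. Hspa1a read 8.32, 9.89 and 9.47 at day 1, against 11.42, 12.77, 12.40 and 11.92 at day 0 (-2.90 ± 0.43, adjusted p = 0.00443), and its near copy Hspa1b may share the signal. Of the 10 factors called in the lists, Atf5, Pax4, Ciart and E2f6 kept the call with any array left out, and the other 6 lost it without day 1 replicate 2 (adjusted p up to 0.138) and without day 1 replicate 3 (up to 0.154).

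Of 327 ligands, receptors and feedback regulators of kinases and G proteins, 22 were called (9 higher, 13 lower), 6.73% beside 4.37% of all genes. Of 38 growth factors and their binding proteins 4 rose and 3 fell (18.4% called). Ccn2, a connective tissue growth factor of the matrix, read 9.34, 11.63 and 11.97 at day 1, against 9.02, 8.64, 8.27 and 8.71 at day 0 (2.32 ± 0.49, adjusted p = 0.0235). Its rise was 3.31 in the set of 4 arrays and 0.51 in the other day 0 and day 1 arrays, and it lost the call without day 1 replicate 2, day 1 replicate 3 or day 0 replicate 2. Pdgfa, a growth factor for mesenchyme, read 10.45, 10.23 and 10.51 at day 1, against 9.89, 9.52, 9.21 and 9.49 at day 0 (0.87 ± 0.15, adjusted p = 0.0104). Mdk, midkine, a heparin-binding growth factor of the embryo, read 11.42, 11.34 and 11.41 at day 1, against 13.61, 13.30, 13.03 and 13.09 at day 0 (-1.86 ± 0.16, adjusted p = 1.49e-04). All 4 of its probes were lower at day 1. It went on down to 9.69 and 9.20 at day 4 and 8.12 and 7.91 in adult islets. Fgf21, a hormone of the fasting and stress response, was at least 1.37-fold higher (7.58 to 7.79 at day 1, 7.16 to 7.22 at day 0, adjusted p = 0.00793). The neurotrophin Bdnf read 7.50, 7.30 and 7.75 at day 1, against 8.11, 8.17, 8.14 and 8.29 at day 0 (-0.66 ± 0.10, adjusted p = 0.00633). Fgf13 rose and Igfbpl1 fell.

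Wnt4 was the only call among 27 Wnt ligands, Frizzled receptors and antagonists. It read 8.90, 8.85 and 9.65 at day 1, against 7.89, 8.04, 8.15 and 8.01 at day 0 (1.11 ± 0.18, adjusted p = 0.00633), and was higher still at day 4 (10.03 and 10.28) and in adult islets (10.46 and 10.21). The ephrin ligand Efna5 followed the same course, at 8.75, 9.43 and 8.96 at day 1, against 7.93 to 8.37 at day 0 (0.96 ± 0.16, adjusted p = 0.00786), then 9.44 and 9.35 at day 4 and 10.21 and 10.12 in adult islets. It was 1 of 14 Eph receptors and ephrins. Egfr, the receptor of epidermal growth factor, was 1 of 21 receptor tyrosine kinases called and read 7.70, 8.55 and 7.87 at day 1, against 7.22, 7.33, 7.31 and 7.18 at day 0 (0.78 ± 0.19, adjusted p = 0.0435). Gdf9, of the BMP family, was 1 of 34 called and at least 1.24-fold higher (adjusted p = 0.0192).

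Of receptors coupled to G proteins, 1 of 20 for peptides and amines fell (5% called, median -0.06) and 3 of 70 for lipids, nucleotides or unknown ligands (4.29%, median -0.01), shares near the 4.37% of all genes. Ffar2, the receptor of short-chain fatty acids, read 10.14, 9.54 and 9.42 at day 1, against 12.01, 11.94, 11.71 and 11.54 at day 0 (-2.10 ± 0.17, adjusted p = 9.51e-05), a fall seen on every array. Gpr142, a receptor of aromatic amino acids, read 7.84, 7.44 and 7.76 at day 1, against 8.15, 8.62, 8.16 and 8.13 at day 0 (-0.59 ± 0.14, adjusted p = 0.0373). Npy1r and the fractalkine receptor Cx3cr1 were above background on all day 0 arrays and on no day 1 array, at least 1.12-fold and 1.18-fold lower (adjusted p = 0.0245 and 0.0237). Glp1r was above background on no array of either day, and Gipr was not analysed here. Of 43 cytokine and TNF family receptors Il17re and Cd40 fell (4.65% called). Il17re read 7.56, 7.57 and 7.49 at day 1, against 8.58, 8.70, 8.81 and 8.42 at day 0 (-1.08 ± 0.12, adjusted p = 5.28e-04). Cd40 fell by 0.83 on the log2 scale (adjusted p = 0.0437). The chemokine Ccl4 was at least 3.33-fold lower (6.90 to 7.04 at day 1, 7.76 to 9.65 at day 0, adjusted p = 0.0162). It lost the call without day 1 replicate 2 or 3 (adjusted p up to 0.0623). Ccl4, Cx3cr1 and Cd40 are also made by immune cells. The immune markers averaged 7.10 to 7.47 at day 1 and 7.66 to 8.15 at day 0, with 2 of 9 called (Laptm5 and Fcer1g). Immune genes outside that list were also called, in both directions (above). The part of such cells in these falls was not tested.

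Of 60 feedback regulators of kinases and G proteins 4 fell and Trib3 rose (8.33% called beside 4.37% of all genes). Dusp6, a phosphatase that reports ERK signalling, read 8.97, 9.42 and 9.50 at day 1, against 10.69, 10.59, 10.57 and 10.42 at day 0 (-1.27 ± 0.15, adjusted p = 0.00108). Dusp1, an immediate early phosphatase, read 9.56, 9.92 and 10.24 at day 1, against 11.15, 12.19, 10.98 and 10.96 at day 0 (-1.41 ± 0.28, adjusted p = 0.0167). Rgs16 (-1.21 ± 0.23, adjusted p = 0.0159) and Socs3 (-0.74 ± 0.17, adjusted p = 0.0383) fell too. Of the 22 ligands, receptors and regulators called and named, Ffar2, Mdk, Efna5, Wnt4, Fgf21, Bdnf, Il17re and Dusp6 kept the call with any array left out. The other 14 lost it at least once, 12 of them without day 1 replicate 3 (adjusted p up to 0.19), 11 without day 1 replicate 2 (up to 0.155), 7 without day 1 replicate 1 (up to 0.107) and 3 to 8 without each day 0 array (up to 0.0997). Efna5 lost the call with only the 7 day 0 and day 1 arrays in the fit.

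Other genes with large changes belonged to no list. Pdyn, the precursor of dynorphin, read 10.14, 11.03 and 10.53 at day 1, against 7.25, 7.85, 7.82 and 7.43 at day 0 (2.98 ± 0.32, adjusted p = 5.62e-04), and was higher still at day 4 (11.79 and 11.59) and in adult islets (11.87 and 11.29). Nptx2, a neuronal pentraxin, read 10.91, 10.86 and 10.56 at day 1, against 7.68, 8.24, 8.49 and 7.91 at day 0 (2.70 ± 0.19, adjusted p = 4.12e-05), and lay at 8.55 and 8.27 in adult islets. Cholecystokinin, Cck, went the other way, at 9.24, 9.27 and 8.89 at day 1, against 10.86, 10.65, 11.19 and 10.46 at day 0 (-1.65 ± 0.21, adjusted p = 0.00156), and was below background in adult islets (7.15 and 6.94). The neurexin ligand Nxph1 read 7.81, 7.69 and 7.89 at day 1, against 9.08, 9.40, 9.55 and 9.23 at day 0 (-1.52 ± 0.12, adjusted p = 6.88e-05). Dpp4, the peptidase that cleaves incretins, read 8.79, 8.81 and 8.93 at day 1, against 10.19, 10.76, 10.28 and 10.15 at day 0 (-1.50 ± 0.23, adjusted p = 0.00452). Anxa3, a membrane-binding annexin, read 8.65, 10.88 and 10.48 at day 1, against 8.24, 7.82, 7.69 and 8.37 at day 0 (1.97 ± 0.44, adjusted p = 0.0295). It rose by 2.65 in the set of 4 arrays and by 0.62 in the others, and its adjusted p was above 0.05 without day 1 replicate 2 or 3 or without day 0 replicate 1, 2 or 3 (up to 0.132, without day 1 replicate 3).

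Adhesion molecules were mostly not called. Of 24 cadherins and catenins, 14 protocadherins, 53 immunoglobulin family and other adhesion molecules and 28 semaphorins, plexins, netrins and slits, none passed at an adjusted p under 0.05. E-cadherin, Cdh1, read 11.29, 10.94 and 11.09 at day 1 and 11.16, 11.25, 10.65 and 11.10 at day 0, and Ncam1 was near background (7.24 to 7.36 and 7.15 to 7.32). Epcam was not analysed here. The tight junction proteins parted, with 2 of 25 higher and 1 lower (12% called beside 4.37% of all genes). Cldn11 read 12.93, 13.36 and 12.89 at day 1, against 11.99, 12.24, 12.52 and 11.92 at day 0 (0.90 ± 0.16, adjusted p = 0.0104), stayed at 12.90 and 12.86 at day 4 and was 7.47 and 7.43 in adult islets. Lin7b, a scaffold of cell polarity, read 8.64, 8.96 and 8.35 at day 1, against 7.56, 7.74, 7.95 and 7.71 at day 0 (0.91 ± 0.15, adjusted p = 0.00697). Cldn10 read 8.87, 10.12 and 9.09 at day 1, against 11.95, 11.02, 10.45 and 11.32 at day 0 (-1.83 ± 0.37, adjusted p = 0.0193). Of 12 integrin chains Itga3, which binds laminin, rose (0.87 ± 0.19, adjusted p = 0.0254).

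Of 56 proteases of the matrix and their inhibitors 10 fell and 0 rose (median -0.04, 17.9% called beside 4.37% of all genes). All 10 were serpins, inhibitors of serine proteases or their relatives. Without day 1 replicate 3 the count was 5. Serpinf2, which blocks plasmin, read 7.88, 7.89 and 8.10 at day 1, against 9.36, 9.45, 9.35 and 9.08 at day 0 (-1.35 ± 0.11, adjusted p = 9.51e-05). Serpina6, the globulin that binds corticosteroids, read 7.73, 8.59 and 8.23 at day 1, against 10.34, 10.16, 9.17 and 9.21 at day 0 (-1.54 ± 0.29, adjusted p = 0.016). Serpina1c (-1.28 ± 0.25) and Serpina1d (-1.28 ± 0.25) encode alpha-1-antitrypsin and have near copies in Serpina1a, Serpina1b and Serpina1e, which also fell and whose probes may read each other. Serpinb12, Serpinb1a and Serpini1 completed the 10. Wfdc15b, of a family of secreted protease inhibitors, read 7.79, 8.74 and 8.11 at day 1, against 10.33, 9.52, 9.74 and 9.84 at day 0 (-1.64 ± 0.22, adjusted p = 0.00219). Of 24 collagens Col9a2 (-0.87 ± 0.20) and Col26a1 (-0.66 ± 0.15) fell (8.33% called). Of 31 laminins and other matrix glycoproteins Spock3 fell (-0.46 ± 0.11, 3.23% called). Of the 15 genes of adhesion, matrix and actin named by the rule, Acta1, Actc1, Vcl, Lin7b, Cldn11 and Serpinf2 kept the call with any array left out. The other 9 all lost it without day 1 replicate 3 (adjusted p up to 0.16), 5 without day 1 replicate 1 (up to 0.111), 5 without day 1 replicate 2 (up to 0.108) and 4 without each day 0 array (up to 0.0935). Cldn11 lost the call with only the 7 day 0 and day 1 arrays in the fit.

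**Figure D4:**
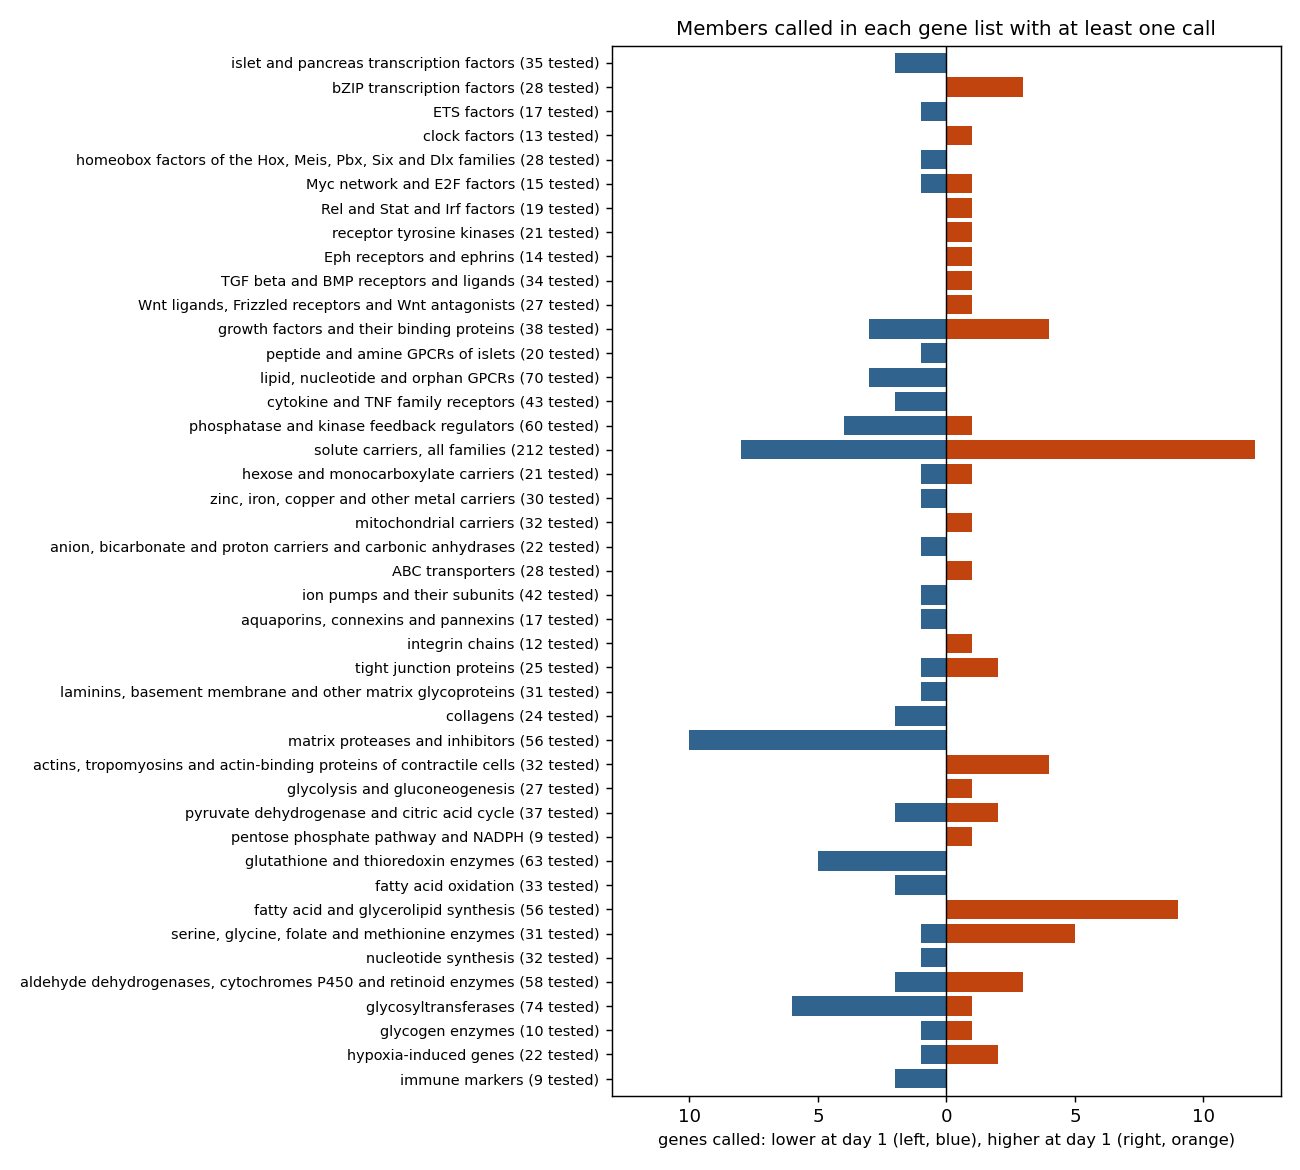
Number of members called in each of the 60 gene lists of the study design with at least 1 call, lower at day 1 to the left and higher at day 1 to the right, with the number tested in brackets. Solute carriers (12 higher, 8 lower), lipid synthesis (9 higher) and protease inhibitors (10 lower) have the longest bars in the plot.

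The level at day 1 can be set beside the later stages without a test. Of the 208 genes higher at day 1, both day 4 arrays also lay above every day 0 array for 180, both adult islet arrays for 134 and all 4 for 130. Of the 246 lower genes, both day 4 arrays lay below every day 0 array for 220, both adult islet arrays for 193 and all 4 for 183. Over all genes tested both day 4 arrays lay above every day 0 array in 19.7% and below it in 24.2%. For both adult islet arrays the shares over all genes were 23.3% above and 32.8% below, and for all 4 arrays 11.4% and 16.7%. These counts share the day 0 arrays with the choice of the genes. Some genes followed other courses. St6gal1 lay at 10.19 and 10.10 at day 4 and 11.08 and 10.88 in adult islets, where day 0 was 10.72 to 11.20, and Upp1 at 10.61 and 10.47, then 11.32 and 10.94. Acta1 was still at 10.61 and 11.03 at day 4 but at 8.29 and 8.14 in adult islets, and Gdf9 was above background at day 1 and not at day 4 (7.07 and 7.19).

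**Figure D5:**
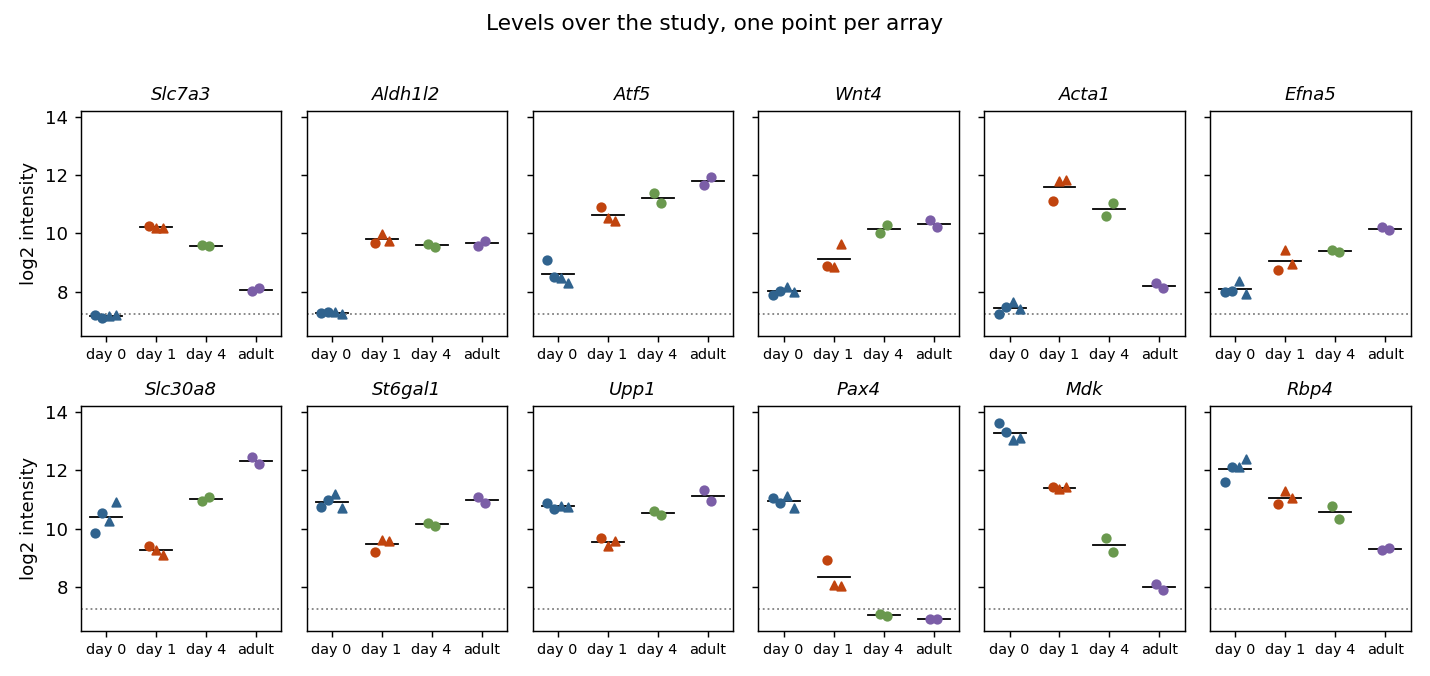
Log2 intensity on each array at day 0, day 1 and day 4 and in adult islets, with the mean as a bar, the background level as a dotted line and triangles for the set of 4 arrays. The means of Atf5, Wnt4 and Efna5 climb through all stages, those of Slc30a8, St6gal1 and Upp1 dip at day 1, those of Mdk and Rbp4 descend throughout, and Pax4 is below background from day 4.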

How the data were processed

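RNA from 13 samples was profiled on Illumina bead arrays, and the 3 day 1 and 4 day 0 arrays were compared. Per the labels' protocols, RNA extracted with Trizol was amplified into biotin-labelled cRNA. The deposited values are log2 intensities (6.73 to 15.20) whose between-array normalization by the authors is not given in the sources used here. Base 2 was inferred from their range. Quartiles agree closely between arrays (medians 7.15 to 7.18), so a change shared by most genes cannot be seen. The 26 value columns of the unnormalized table match no label and were not used.

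Background was the mode of all values (6.98) plus 5 times the spread below it (0.052), or 7.24, and 44.1 to 46.4% of probes exceeded it on each array. Probes above it on at least 2 of 13 arrays were kept (14946 of 25697, 14056 with a gene in the platform's annotation), and the brightest probe stood for each of 10382 genes, 2662 of which had several. Of the 133 genes called with several probes, 15 had a probe of opposite sign. Differences came from limma 3.58.1 (lmFit, eBayes; R 4.3.3) with 1 mean for each of the 5 groups over the 13 arrays and 8 residual degrees of freedom, and p-values were adjusted by Benjamini-Hochberg over all genes. The number of arrays limits the precision.

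Genes were named by rule: the 20 largest rises and 20 largest falls among called genes whose arrays did not overlap, the 4 largest each way in each of 60 lists, and 22 genes of islet biology, 5 of which were not analysed here. The comparison, the lists and the rule were chosen with earlier results of these data known, and lists were cleaned of names caught by spelling alone after values were seen. No list was tested as a set. An exact permutation of 3 against 4 arrays cannot pass the threshold after adjustment and was not used. Alternatives were the filter, normalization, variance trend, probe choice, background subtraction, arrays in the fit, left-out arrays and a replicate block, and, after the data were seen, 2 sets of arrays formed by clustering on dim probes.

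No pairing of the samples by replicate number was seen, though so few arrays cannot decide whether they were paired. Deviations from the group means of same-numbered day 1 and day 0 arrays correlated at 0.30, -0.09 and -0.32. Day 1 replicates 1, 2 and 3 correlated best with day 0 replicates 1, 3 and 4. No 2 arrays held identical values. Promoter sequences were RefSeq's on GRCm38.p6.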

Additional observations from a re-analysis of the deposited data

Results flagged for a closer look

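Of 133 named genes, 8 had a day 0 array whose gap to the nearest other array, divided by the range of the 4, was over Dixon's critical value for 4 samples, which chance gives in about 1 of 20 groups. Day 0 replicate 2 stood apart for the receptor Gpr142, at 8.62 where the others were 8.13 to 8.16, and for the phosphatase Dusp1, at 12.19 where they were 10.96 to 11.15. Day 0 replicate 3 stood apart for Cd40, at 8.94 where the others were 8.19 to 8.29, and for Aqp7, at 7.88 where they were 7.43 to 7.47. Day 0 replicate 4 was low for the collagen Col9a2, at 10.34 where the others were 10.86 to 10.95, and for Serpina1c, at 9.62 where they were 10.73 to 10.91. Day 0 replicate 1 was low for the malic enzyme Me1, at 7.85 where the others were 8.14 to 8.15, and for Rfx6, at 11.17 where they were 11.46 to 11.49. All but Rfx6 were called.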

How the results depend on the processing

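The 454 calls (208 higher, 246 lower) became 168 (83 higher, 85 lower) with only the 7 day 0 and day 1 arrays in the fit. With a replicate block they became 235 (94 higher, 141 lower), although no pairing by these numbers was seen. Leaving out 1 array at a time gave 202 to 471 calls, 102 to 226 higher and 91 to 245 lower. Without day 1 replicate 1 the share of calls that were higher was 57.2%, where it was 45.8% with all arrays. Alternatives added after the data were seen gave 229 calls (125 higher, 104 lower) within the set of 4 arrays and 43 (19 higher, 24 lower) within the other 3 arrays of the 2 days. Without both day 1 replicate 2 and day 0 replicate 3 there were 260 calls (108 higher, 152 lower). Fewer samples enter all of these but the block, for which the cause was not tested. The other filters, scalings, probe choices and the trend, on all 13 arrays, gave 359 to 469. Of 117 named genes called, 24 kept the call under all 21 alternatives and none changed direction. With only the 7 arrays in the fit 50 of the 117 lost the call, and under the block 45 did. Among genes that kept the call with any array left out, Efna5, Cldn11 and Pygb lost it in both of these fits. Slc7a5 and Lin7b lost it under the block. Sign changed only for genes that were not called. Under the block these were Pdx1 (-0.09), Nkx6-1 (-0.07) and Pax6 (0.03). Within the 3 arrays they were Pdx1 (-0.04), Nkx6-1 (-0.01), Nkx2-2 (-0.02), Pax6 (0.06), Insm1 (0.20) and Sox9 (0.11), and within the set of 4 Rfx6 (-0.09) and Foxa2 (0.13). Foxa2 was 0.07 with the set as a term, and Glp1r 0.00 with background subtracted. With arrays left out (1, or the 2 above), Pdx1 ranged from -0.09 to 0.21, Nkx6-1 from -0.07 to 0.31, Pax6 from -0.09 to 0.07, Insm1 from -0.36 to 0.03, Rfx6 from -0.08 to 0.25, Foxa2 from -0.40 to 0.30, Sox9 from -0.35 to 0.00 and Cdh1 from -0.07 to 0.15. The number of arrays limits what these fits can show.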

Other observations

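Further gene groups were collected after the values were seen, so their counts are descriptions and carry no test. Of 44 genes of the axonemes of motile cilia 14 were lower at day 1 and 0 higher. The share called was 31.8% beside 4.37% of all genes, and the median -0.18 beside 0.00 over all genes. Dynlrb2, a light chain of dynein, had the largest fall (-1.58 ± 0.19, adjusted p = 0.00108), followed by Ak8 (-1.13 ± 0.15), Mns1 (-1.08 ± 0.21) and Nme5 (-0.93 ± 0.17). Leaving out 1 array gave 5 to 12. The count was 5 when day 1 replicate 3 was dropped and 6 when day 1 replicate 2 was. Dropping day 1 replicate 1 or day 0 replicate 3 gave 9.

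Of 40 plasma proteins known as products of liver 13 were lower and 0 higher (median -0.54, 32.5% called beside 4.37% of all genes). Of the 13, 7 were serpins described above, among them the near copies Serpina1a to Serpina1e, whose probes may read each other. The others were Habp2 (-1.24 ± 0.27), Igfals (-1.17 ± 0.19), Selenop (-1.17 ± 0.27), Rbp4, Crp and Proc. Without day 1 replicate 3 there were 4, and without day 1 replicate 1 there were 7. Of 44 genes of the lysosome 13.6% were called. Neu1 (1.02 ± 0.21), Dpp7 (1.00 ± 0.23), Asah1 (0.77 ± 0.09) and Flcn, a regulator at the lysosome and not a hydrolase (1.21 ± 0.11), were higher, while Ctsz (-0.77 ± 0.13) and Cpq (-0.73 ± 0.16) were lower. The higher count was 2 without day 1 replicate 2 or 3, and the lower count was 1 without either of these or without day 0 replicate 4. Of 27 genes induced by p53 Ccng1 (0.96 ± 0.23), Phlda3 (0.87 ± 0.16) and Bbc3 (0.70 ± 0.13) were higher and 0 lower (11.1% called). Of these, 0 were higher without both day 1 replicate 2 and day 0 replicate 3.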
